A study of Mus musculus with 17 samples.

Results

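The comparison described here sets an antisense oligonucleotide against the RNA Malat1 that was joined to an antibody against the transferrin receptor (anti-TfR:Malat1) beside the same kind of oligonucleotide given free (Malat1 ASO). Samples were taken by their labelled treatment, 6 mice given anti-TfR:Malat1 and 4 given Malat1 ASO, which are 10 of the 17 mice of the series and hold 166548 of its 284074 nuclei. The mice were females aged 2.3 months, and each carried a human TfR knock-in on both alleles, so the receptor that the antibody binds was carried by the controls too. They received 4 weekly intravenous doses over 24 days, labelled 50 mg per kg for anti-TfR:Malat1 and 2 mg per kg for Malat1 ASO, the second being described as equivalent in oligonucleotide, and the posterior brain was frozen 72 hours after the last dose. The sources used here do not give the oligonucleotide load of the antibody. Saline animals (n = 4), dosed on the same schedule, are given as the level without oligonucleotide, and their samples also carry a dose label of 50 mg per kg. A further 3 animals were given OTV:Malat1, a transport vehicle that binds TfR, also labelled 50 mg per kg. These 3 entered the fits but are not described. Unique molecular identifiers (UMIs, each a counted RNA molecule) of single nuclei were summed per animal and per deposited cell type label, and all genes were compared within each label.

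The transferrin receptor carries iron-loaded transferrin into cells, and on the endothelial cells of brain vessels it can be used to take an antibody from blood into the brain. A free oligonucleotide in blood crosses these vessels poorly. An antisense oligonucleotide of the kind that recruits RNase H pairs with its RNA in the cell, and the RNA is then cut. Malat1 is an abundant long noncoding RNA that stays in nuclear speckles, which makes it a common readout in nuclei. In the GENCODE M21 annotation of GRCm38, the build that the submitters' notes call mm10, Malat1 (ENSMUSG00000092341.3) is a lincRNA gene on the minus strand of chromosome 19 from 5795690 to 5802672.

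Each of the 10 animals gave 13841 to 17990 nuclei and 57393921 to 79866411 UMIs, and the median nucleus had 3018 to 4052 UMIs. Of the nuclei, 114682 were labelled neurons, 42801 oligodendrocytes, 4974 microglia, 2903 astrocytes, 673 vascular cells and 381 perivascular macrophages. A further 134 labelled glia could not be fitted, since only 1 animal of each group had 20 or more. The deposited metadata name 4 batches without saying what a batch was. Each held 1 Malat1 ASO animal, batches 1 and 2 held 1 anti-TfR:Malat1 animal each, and batches 3 and 4 held 2 each. Batch 4 stood apart, because its saline animal was the lowest of the 4 in Malat1 in every label, so within-batch values are given beside the results. Across the 10 libraries 3424 of 163076 distinct nucleus barcodes occurred in more than 1 library. The labels were checked against marker lists, and the summed level of 8 oligodendrocyte markers was 14971 CPM (UMIs of the genes per 1e+06 UMIs of the label) in oligodendrocytes and 485 in neurons of Malat1 ASO animals. Markers of other cell types were counted in every fitted label. Meg3, a noncoding RNA that was most abundant in neurons here, stood at 7923 CPM in neurons and 468 CPM in oligodendrocytes of Malat1 ASO animals. Whether such RNA came from other cells was not tested.

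Mean Malat1 with anti-TfR:Malat1 stood at 71.6% of the free oligonucleotide level in oligodendrocytes, 67.0% in astrocytes, 86.7% in microglia, 85.1% in perivascular macrophages, 92.2% in vascular cells and 94.1% in neurons, which made up most of the nuclei. In no label did the change of Malat1 pass the threshold after adjustment over all genes in the edgeR fit, while the differences of oligodendrocytes and of astrocytes from neurons, tested further on, passed by free permutation. Over all nuclei its mean share of UMIs was 5.92% ± 1.00 (SD, n = 6) with anti-TfR:Malat1, 6.55% ± 1.35 (SD, n = 4) with Malat1 ASO and 6.85% ± 1.56 (SD, n = 4) with saline. In the edgeR quasi-likelihood fit with batch as a block, the log2 change over all nuclei was -0.10 (SE 0.11, adjusted p = 1.00 by Benjamini-Hochberg). The conjugate was lower than the free oligonucleotide in 3 of 4 batches. In batch 4 it was higher by 0.23 on the log2 scale.

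**Figure D1:**
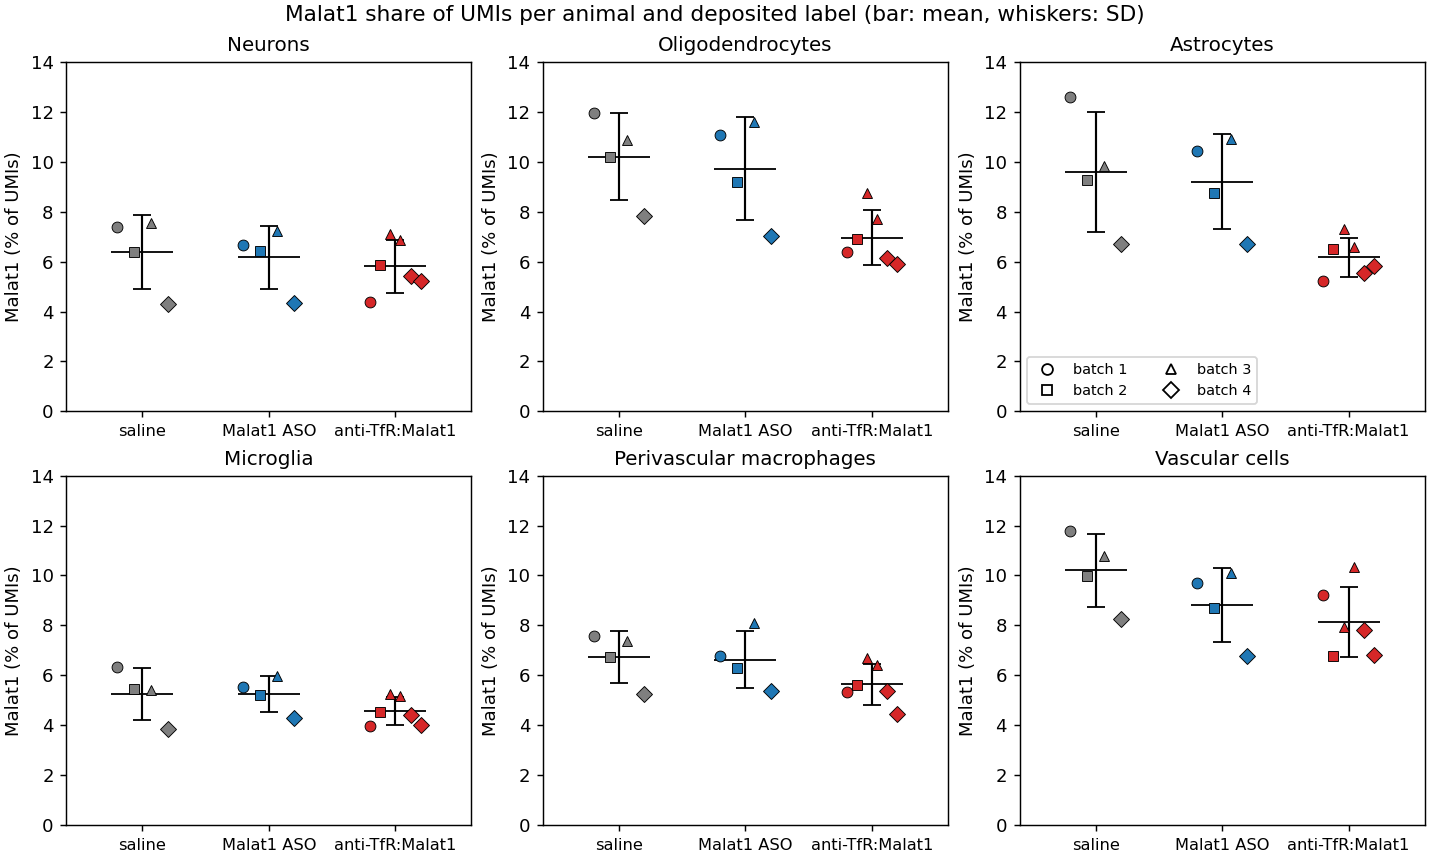
Malat1 as a percentage of UMIs (y axis) in each animal, by treatment (x axis) and deposited label (panels). Points are animals, shapes are batches, bars are means and whiskers SD; in oligodendrocytes and astrocytes the anti-TfR:Malat1 means are 6.97% and 6.17%, against 9.73% and 9.21% with Malat1 ASO, and the groups overlap in every panel.

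In oligodendrocytes, the myelinating glia, the Malat1 ASO animals stood at 11.1%, 9.19%, 11.6% and 7.04% of UMIs in replicates 1 to 4. The 6 anti-TfR:Malat1 animals ran from 5.91% to 8.75%, with a median of 6.64%. Of these, 4 lay below every Malat1 ASO animal, and 3 of the 4 Malat1 ASO animals lay above every anti-TfR:Malat1 animal, the exception being the one of batch 4. Group means were 6.97% ± 1.09 (SD, n = 6) and 9.73% ± 2.08 (SD, n = 4), so that the conjugate group stood at 71.6% of the free oligonucleotide group, beside 10.2% ± 1.75 (SD, n = 4) with saline. The edgeR log2 change was -0.49 (SE 0.10), a fold of 0.710, with an interval of 2 SE from -0.69 to -0.30. By edgeR Malat1 ranked first by p (7.35e-05) of all genes in the label, before adjustment. With the Benjamini-Hochberg adjustment over it and 14418 other genes it did not pass the threshold of 0.05 (edgeR adjusted p = 1.00). Taken alone, the exact two-sided permutation test of the 10 animals gave p = 0.0381 over 210 regroupings, and 0.114 after adjustment over 6 labels. The unadjusted value rose above 0.05, up to 0.0952, in 7 of 10 exact permutation tests that left out 1 animal, namely replicates 1, 2, 5 and 6 of anti-TfR:Malat1 and replicates 1, 2 and 3 of Malat1 ASO. The difference was negative in all 4 batches, at -0.80, -0.41, -0.50 and -0.23 in batches 1 to 4, and moving the group labels within batches gave p = 0.0556, the smallest that the 36 exact regroupings allow. Of 22 alternatives, 20 left Malat1 short of the threshold (edgeR adjusted p of 0.530 or more), while DESeq2 gave -0.49 with an adjusted p of 0.0455 and the fit with no low-count filter passed as well.

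Astrocytes, the glia whose endfeet wrap brain vessels, showed the largest fitted difference of the 6 labels. The Malat1 ASO animals stood at 10.4%, 8.76%, 10.9% and 6.71% in replicates 1 to 4, and the anti-TfR:Malat1 animals at 5.21% to 7.33% with a median of 6.17%. All but 1 of the 6 conjugate animals lay below every free oligonucleotide animal. Means were 6.17% ± 0.78 (SD, n = 6) and 9.21% ± 1.90 (SD, n = 4), a level of 67.0% of the free oligonucleotide group, with saline at 9.61% ± 2.41 (SD, n = 4). By edgeR the log2 change was -0.56 (SE 0.11), a fold of 0.676, and Malat1 again ranked first by p (1.32e-05) without passing the threshold (adjusted p = 0.112). Of 22 alternatives, 19 left Malat1 short of the threshold, with adjusted p up to 0.743. Those that passed in edgeR were the fit of only the 10 animals (-0.60, adjusted p = 0.0278), the fit without the nuclei that the authors had called doublets (-0.58, adjusted p = 0.0371) and the fit with no low-count filter. The exact permutation p of the 10 animals was 0.0190, and 0.114 adjusted over the 6 labels. Within batches the difference was -1.0, -0.43, -0.65 and -0.24, again at the floor of 0.0556 in the exact test within batches.

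The plot of fitted and within-batch changes sets the labels side by side. Microglia, the resident immune cells, stood at 4.55% ± 0.56 (SD, n = 6) with the conjugate and 5.25% ± 0.72 (SD, n = 4) with the free oligonucleotide, which matched saline at 5.26% ± 1.05 (SD, n = 4) to within the spread. The groups overlapped: the Malat1 ASO animals had 5.55%, 5.20%, 5.97% and 4.29%, and the conjugate animals 3.97% to 5.26% with a median of 4.46%. The edgeR log2 change was -0.19 (SE 0.07, p = 0.0137, adjusted p = 0.998), and the exact permutation p was 0.124. All 4 batches gave a negative difference, the one in batch 4 being -0.03.

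**Figure D2:**
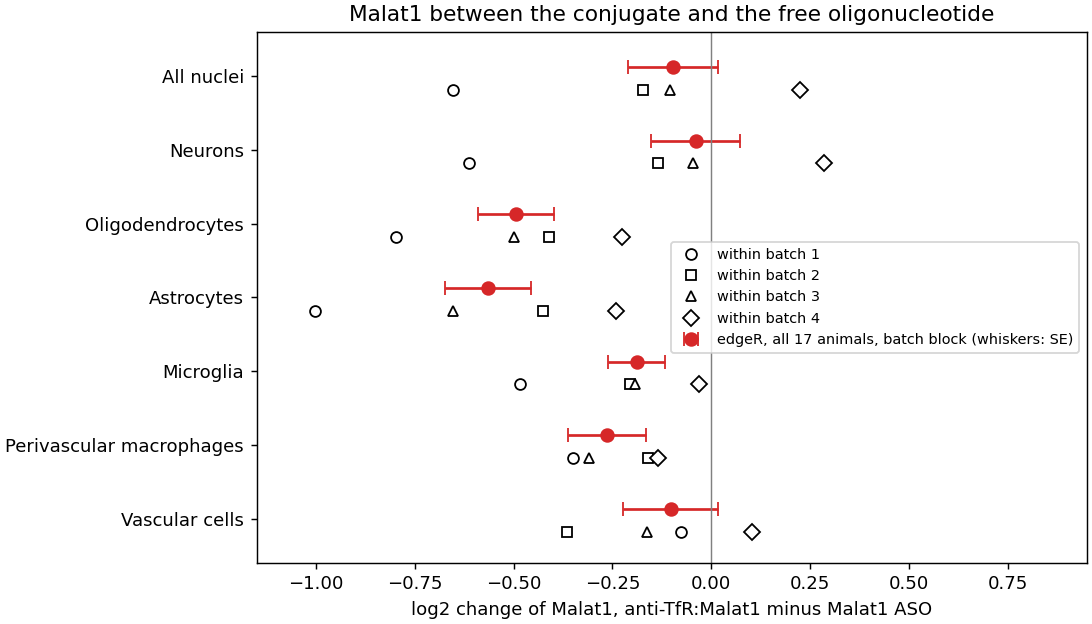
Log2 change of Malat1 (x axis), anti-TfR:Malat1 minus Malat1 ASO, for all nuclei and each label (y axis). Filled points are edgeR values with SE, open shapes the differences within each batch; oligodendrocytes at -0.49 and astrocytes at -0.56 lie lowest, and in neurons the batches fall on both sides of 0.

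Perivascular macrophages, which line the spaces around vessels, were counted in only 23 to 47 nuclei per animal. Free oligonucleotide animals had 6.77%, 6.28%, 8.11% and 5.35% of UMIs as Malat1, and conjugate animals 4.45% to 6.69% with a median of 5.49%. The edgeR log2 change was -0.26 (SE 0.10, p = 0.0126, adjusted p = 0.676) and the exact permutation p 0.181. The sign was negative in all 4 batches, from -0.35 to -0.13. Moving the group labels within batches gave an exact permutation p of 0.0556, again the smallest possible. Over 20 alternatives the edgeR change ran from -0.32 to -0.12, with unadjusted p up to 0.350.

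Neurons showed no detectable difference. Malat1 took 6.67%, 6.44%, 7.21% and 4.35% of neuronal UMIs in the Malat1 ASO animals, and 4.36% to 7.11% with a median of 5.64% in the anti-TfR:Malat1 animals. The 2 ranges lie on top of each other, and saline was at 6.40% ± 1.48 (SD, n = 4). The edgeR log2 change was -0.04 (SE 0.11, adjusted p = 1.00), with an interval of 2 SE from -0.26 to 0.19, so a fall as large as the one fitted in oligodendrocytes lies outside it. In each group 1 animal was lowest, replicate 1 of anti-TfR:Malat1 at 4.36% and replicate 4 of Malat1 ASO at 4.35%. The edgeR change was 0.09 without the first and -0.12 without the second. Within batches the neuronal difference ran from -0.61 in batch 1 to 0.29 in batch 4.

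Vascular cells had 42 to 101 nuclei per animal. Malat1 ASO animals stood at 9.69%, 8.71%, 10.1% and 6.78%, and anti-TfR:Malat1 animals at 6.77% to 10.3% with a median of 7.86%. Saline stood at 10.2% ± 1.48 (SD, n = 4), and the Malat1 ASO mean was 86.5% of the saline mean. The edgeR log2 change was -0.10 (SE 0.12, adjusted p = 0.987), and within batches the differences were -0.08, -0.36, -0.16 and 0.105. The makeup of this label was compared by marker lists, whose ranges overlapped between the groups. The summed level of 8 endothelial markers was 4157 CPM with the conjugate (1407 to 8423) and 2585 CPM with the free oligonucleotide (1069 to 4184), and that of 7 fibroblast markers was 1570 CPM (1101 to 1936) against 2552 CPM (1899 to 2880). By the list that led in each nucleus, 55 of 397 nuclei with the conjugate (and 3 more in replicate 4) and 38 of 276 with the free oligonucleotide were endothelial-led, 131 and 92 mural-led, and 174 and 130 fibroblast-led. The part of this makeup in the Malat1 value was not tested.

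Malat1 was then read in each of these sets of vascular nuclei. Endothelial-led nuclei, those of the cells that carry TfR on the blood side, numbered 96 in the 10 animals. Malat1 took 5.33%, 4.36%, 6.34% and 4.28% of their UMIs in the Malat1 ASO animals, and 2.46% to 4.6% in the 5 anti-TfR:Malat1 animals with 5 or more such nuclei. Means were 3.44% ± 0.97 (SD, n = 5) and 5.08% ± 0.96 (SD, n = 4), or 67.8% of the free oligonucleotide level, with saline at 7.19% ± 0.98 (SD, n = 4). The log2 difference was -0.59, with an exact permutation p of 0.0794 over 126 regroupings and 0.238 adjusted over the 3 lists. Within batches it was -0.51 with an exact permutation p of 0.0833, the smallest that 24 regroupings allow. Over the alternatives with more than 2 animals in each group, the difference ran from -0.70 to -0.46 and its unadjusted exact permutation p from 0.0476 (without the authors' doublets) to 0.200 (without batch 4, where 3 animals against 3 could not pass). Asking for 10 or more nuclei per animal left 2 animals in each group and gave -0.50, with an exact permutation p of 0.667 in a design that could not pass. Of the 5 conjugate animals, 3 lay below every free oligonucleotide animal. Mural-led nuclei, the pericytes and smooth muscle of the vessel wall, stood at 10.8% ± 1.08 (SD, n = 6) and 10.9% ± 1.44 (SD, n = 4), with an exact permutation p of 0.867. Fibroblast-led nuclei stood at 8.90% ± 0.88 (SD, n = 6) and 8.59% ± 1.69 (SD, n = 4), with an exact permutation p of 0.648. Saline stood above both compounds by mean, at 12.4% ± 1.76 (SD, n = 4) in mural-led and 10.3% ± 0.95 (SD, n = 4) in fibroblast-led nuclei. Endothelial-led nuclei, which were picked by the endothelial list, carried that list at 16986 CPM and the mural list at 2508 CPM. Where the counts of the mural list came from was not tested.

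Whether the labels differed from each other was tested within animals, as Malat1 in a label minus Malat1 in the neurons of the same animal on the log2(CPM + 1) scale. A shift of the same size in both labels of an animal cancels in this difference. In Malat1 ASO animals oligodendrocytes lay 0.66 ± 0.10 (SD, n = 4) above neurons, from 0.51 to 0.73. In anti-TfR:Malat1 animals they lay 0.27 ± 0.15 (SD, n = 6) above, from 0.17 to 0.55, and 5 of 6 lay below every free oligonucleotide animal. The gap was smaller by 0.39 with the conjugate, with an exact permutation p of 0.0190 and 0.0476 adjusted over the 5 labels set against neurons. For astrocytes the gap was 0.58 ± 0.09 (SD, n = 4) with the free oligonucleotide, from 0.44 to 0.64, and 0.10 ± 0.11 (SD, n = 6) with the conjugate, from -0.06 to 0.26. The groups did not overlap, and the difference of -0.48 had an exact permutation p of 0.00952, the smallest that 210 regroupings allow, and 0.0476 after adjustment. Moving the group labels within batches gave -0.36 for oligodendrocytes and -0.45 for astrocytes, both at the floor of 0.0556 in the exact permutation test. Without batch 4, a setting added once the data had been seen, the values were -0.33 (exact permutation p = 0.114) and -0.47 (p = 0.0571, the smallest that 35 regroupings allow).

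**Figure D3:**
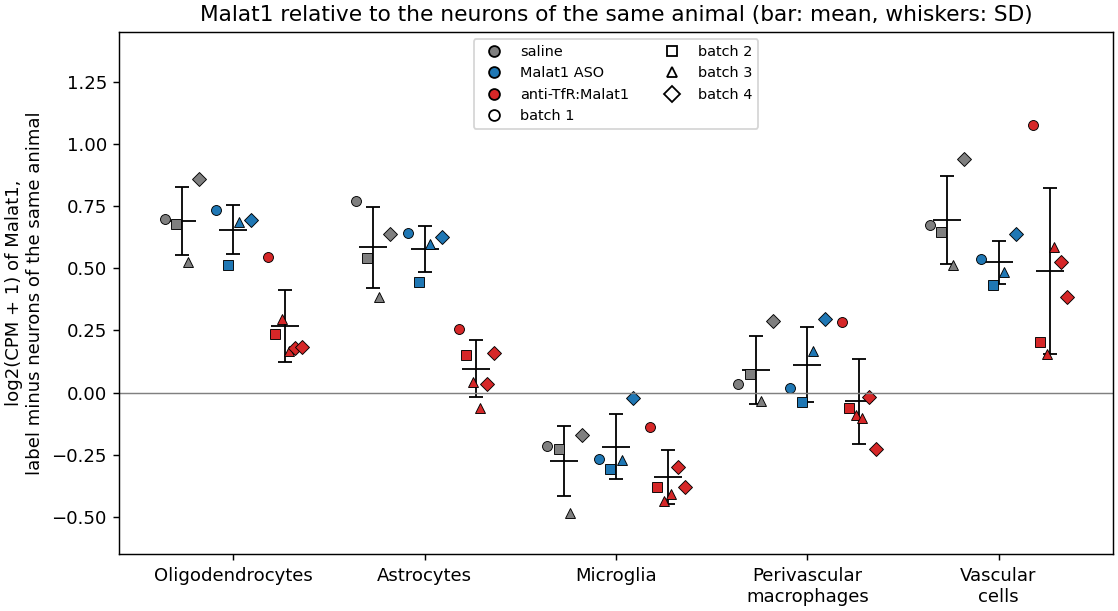
Malat1 in 5 labels (x axis) relative to the neurons of the same animal, on the log2(CPM + 1) scale (y axis). Points are animals, shapes are batches, bars are means and whiskers SD; astrocytes of the anti-TfR:Malat1 animals lie at 0.10 on average and those of Malat1 ASO at 0.58, with no overlap.

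The other labels did not separate in this way. Relative to neurons, the difference between compounds was -0.12 in microglia (exact permutation p = 0.200), -0.15 in perivascular macrophages (p = 0.200) and -0.04 in vascular cells (p = 0.838). Set against microglia in place of neurons, the difference between compounds was -0.27 in oligodendrocytes (exact permutation p = 0.0190) and -0.36 in astrocytes (p = 0.00952), both without adjustment.

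Single nuclei showed how the difference was spread. Each nucleus was thinned to 500 UMIs, the lowest total in the data, so no nucleus was left out, and a nucleus was counted as low in Malat1 when it had fewer UMIs than the 10th percentile of saline nuclei of its label. In oligodendrocytes, where the limit was 32 UMIs, the Malat1 ASO animals had 3.27%, 10.4%, 1.74% and 37.5% low nuclei in replicates 1 to 4. The anti-TfR:Malat1 animals had 24.5% to 58.1%, with a median of 46.7%. Means were 44.5% ± 12.6 (SD, n = 6) against 13.2% ± 16.6 (SD, n = 4), with an exact permutation p of 0.0286 and 0.0857 adjusted over 6 labels, and saline at 9.15% ± 11.5 (SD, n = 4). The 37.5% belonged to the batch 4 animal, and the saline animal of that batch had 26.2%. In astrocytes the means were 37.7% ± 11.9 (SD, n = 6) and 7.26% ± 8.52 (SD, n = 4), with 5 of 6 conjugate animals above every free oligonucleotide animal and an exact permutation p of 0.0190, or 0.0857 adjusted. Moving group labels within batches gave differences of 31.9 points in oligodendrocytes and 31.5 in astrocytes, both at the floor of 0.0556 in the exact permutation test. In microglia the means were 13% ± 8.05 (SD, n = 6) and 5.28% ± 4.44 (SD, n = 4), with an exact permutation p of 0.0857, or 0.171 adjusted. Within batches they were 8.75 points apart, again at the floor of 0.0556 in the exact permutation test. In neurons 10.1% ± 6.20 (SD, n = 6) and 8.99% ± 8.41 (SD, n = 4) of nuclei were low, with an exact permutation p of 0.800, and the within-batch difference was 2.25 points (p = 0.722). Perivascular macrophages had 19.9% ± 10.3 (SD, n = 6) and 16.4% ± 6.56 (SD, n = 4), with an exact permutation p of 0.667. Vascular cells had 20.6% ± 8.45 (SD, n = 6) and 17.2% ± 9.24 (SD, n = 4), with an exact permutation p of 0.562. Within batches these 2 labels differed by 3.61 and 3.00 points.

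The shape of the distributions differed between labels. In oligodendrocytes the 10th percentile of Malat1 per thinned nucleus was 15.3 UMIs with the conjugate and 33.5 with the free oligonucleotide, a ratio of 0.458, the median was 34 and 47, a ratio of 0.723, and the 90th percentile gave a ratio of 0.785. Nuclei with the least Malat1 thus stood farthest apart between the compounds in ratio. Astrocytes showed the same order, with ratios of 0.509, 0.667 and 0.767. In microglia the 3 ratios were 0.852, 0.891 and 0.892, and in neurons 0.974, 0.934 and 0.921, so the 3 points lay closer to each other and to equality. Vascular cells had ratios of 0.705, 0.984 and 0.964, lowest at the 10th percentile with medians close to each other. Perivascular macrophages had ratios of 0.928, 0.897 and 0.879. These ratios are descriptions and were not tested. Before thinning, the median nucleus had 6.85% Malat1 with the conjugate and 9.44% with the free oligonucleotide in oligodendrocytes, at median depths of 1294 and 1305 UMIs.

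**Figure D4:**
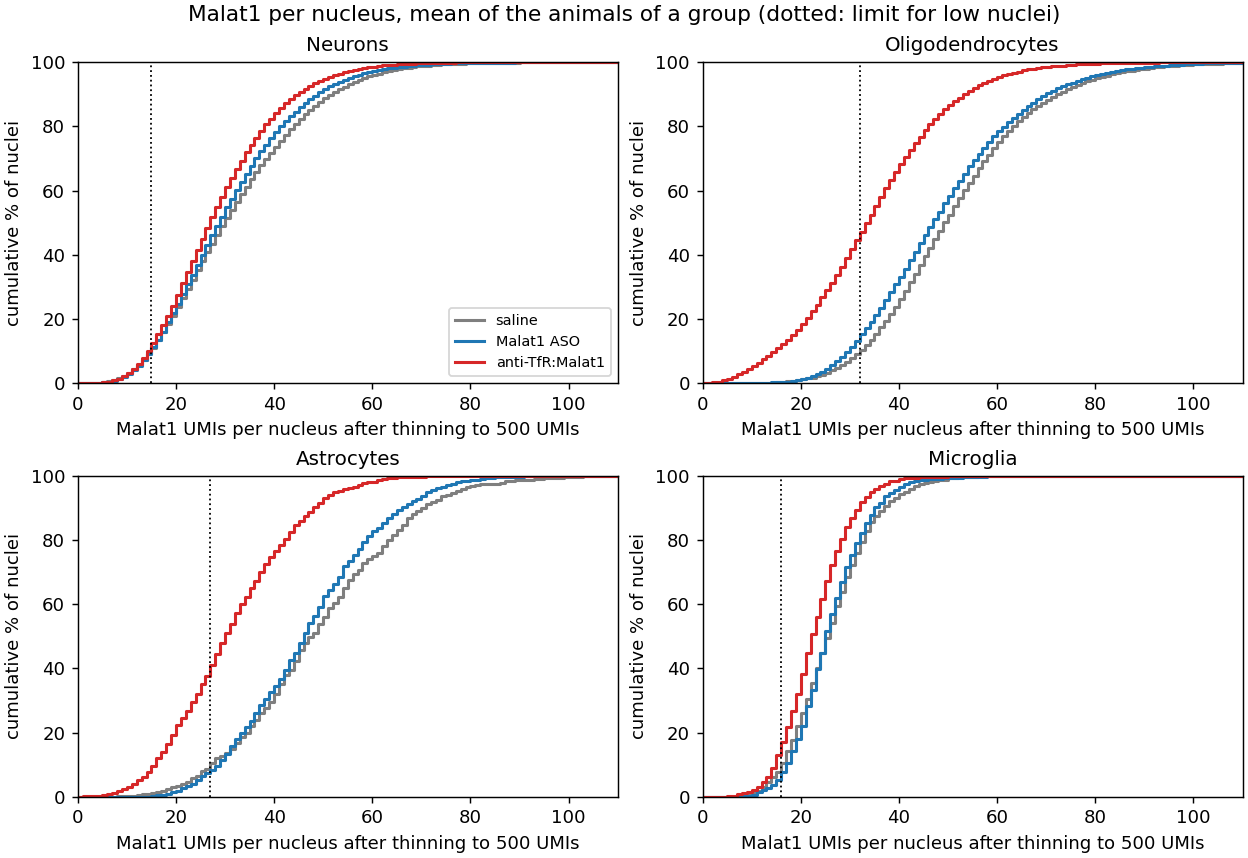
Cumulative percentage of nuclei (y axis) against Malat1 UMIs per nucleus after thinning to 500 UMIs (x axis), as the mean over the animals of a group, in 4 labels. The dotted line is the limit for low nuclei; in oligodendrocytes the anti-TfR:Malat1 curve crosses it at 44.5% and the Malat1 ASO curve at 13.2%, while in neurons the curves run together.

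The deposited clusters gave a finer view within the labels, as a description with no test. Oligodendrocyte nuclei fell mainly into clusters 0, 2 and 15, and the mean within-batch log2 ratio of Malat1 was -0.50, -0.54 and -0.44, negative in all 4 batches in each. Cluster 17 of the same label stood at -0.03, negative in 2 of 4 batches. It was led by 9630013A20Rik, Tns3 and Cnksr3 and held 1130 nuclei, 44.2% of them doublets by the authors' call. Cluster 13 was led by Pdgfra, Vcan and Cspg4, the defining genes of oligodendrocyte precursors. It had 7336 nuclei labelled neurons over all 17 animals, 2504 of them with the conjugate and 1752 with the free oligonucleotide. These stood at -0.05, with Malat1 at 5.23% ± 0.93 (SD, n = 6) and 5.32% ± 1.1 (SD, n = 4). The batch values overlapped between these clusters, running from -0.59 to 0.31 in cluster 13 and from -0.78 to -0.19 in cluster 15.

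Among nuclei labelled neurons, 17 clusters were large enough to describe, and the ratios ran from -0.50 to -0.05 with a median of -0.15. Only 2 of the 17 were negative in all 4 batches, and neither was led by neuronal genes. One was cluster 2, which otherwise holds oligodendrocytes, at -0.50, and the other was cluster 11, led by the immune genes Arhgap45, Inpp5d and Ikzf1, at -0.20. Cluster 10, led by Rarb and Rgs9, stood at -0.19, cluster 16, led by Gabra6 and Fat2, at -0.15, and cluster 1, the one with the most nuclei, led by Otx2os1 and Kcnip1, at -0.09. With the 6 clusters led by genes of other cell types left out of the label, which was also added once the data had been seen, the neuronal edgeR change was -0.04 (SE 0.11), as with them.

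**Figure D5:**
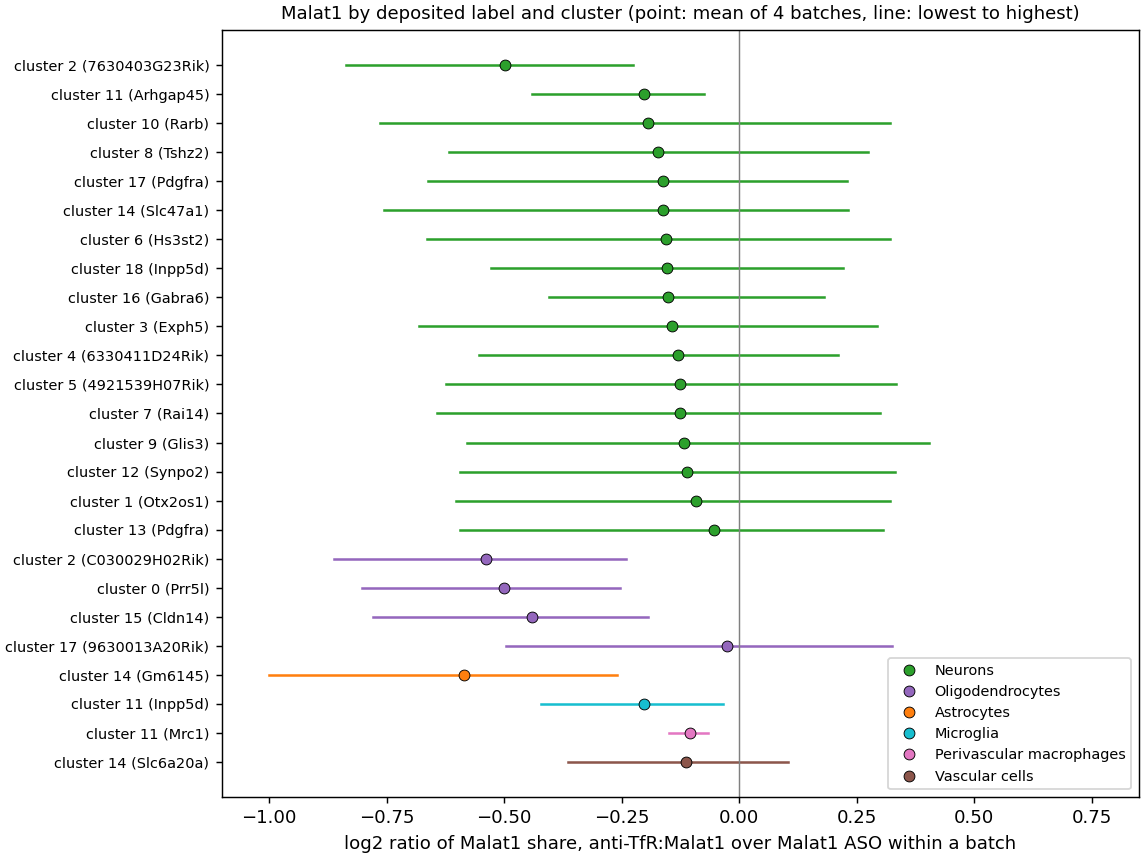
Log2 ratio of the Malat1 share within a batch (x axis), anti-TfR:Malat1 over Malat1 ASO, by deposited label (colour) and cluster (y axis, with its first leading gene). Points are means over 4 batches and lines run from the lowest to the highest batch; oligodendrocyte clusters 0, 2 and 15 and astrocyte cluster 14 lie left of 0 in every batch, and most neuronal clusters span 0.

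Besides Malat1, which did not pass, no gene passed the threshold between the compounds in 5 of the 6 labels or over all nuclei. In oligodendrocytes 0 of 14418 other genes passed in edgeR (0% lower and 0% higher), 276 (1.91%) had an unadjusted p under 0.05, and DESeq2 called 0. In neurons 0 of 20905 passed, with 489 (2.34%) at an unadjusted p under 0.05, and over all nuclei 0 of 21374, with 442 (2.07%). Astrocytes had 281 (3.29%) of 8546, microglia 295 (3.24%) of 9103 and vascular cells 152 (4.59%) of 3311 at that limit, each with 0 past the threshold in edgeR and in DESeq2. The median log2 change over other genes was within 0.02 of 0 in each label. The same fit was run on simulated counts with the means and library sizes of a label and no batch effect. The spread followed the trend over genes, without a spread of each gene's own. In each label 93 to 100 genes of each size were changed together, which makes the Benjamini-Hochberg adjustment milder than for 1 changed gene. The shares called are thus not those for a single changed gene. Of genes changed by 0.5 on the log2 scale it called 53% in neurons and 47.5% in oligodendrocytes. The share was 14.6% in astrocytes, 19.6% in microglia and 6.32% in vascular cells. For changes of 1 the shares were 88.9%, 89.9%, 73.2%, 69.7% and 32.3%, in the same order. A count of 0 thus leaves room for changes that the fit would miss.

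Genes with the smallest p are given as values. In oligodendrocytes Bhlhe22, a transcription factor of neurons, had the smallest p of the other genes, at a log2 change of 1.13 (SE 0.26), with 2.64 to 6.57 CPM in the conjugate animals and 1.28, 1.33, 1.97 and 2.26 CPM in the free oligonucleotide animals. The saline mean was 3.14 CPM. The 2 groups did not overlap for Bhlhe22, as was so for 36 (0.25%) of the other genes in that direction, and its edgeR p was 0.00033 (adjusted 1.00). In astrocytes Ctnnbip1, an inhibitor of beta-catenin, stood at 73.9 CPM with the conjugate and 43.7 CPM with the free oligonucleotide, and Thbs3, a thrombospondin, at 25.3 and 43.5 CPM. Their saline means were 48.6 and 40.1 CPM. In microglia Ermp1, a metallopeptidase of the endoplasmic reticulum, stood at 7.21 CPM (5.53 to 10.2) and 22.0 CPM (9.54 to 27.5), so its groups overlapped. Its saline mean was 14.4 CPM. In vascular cells Ndnf, a secreted factor, stood at 166 and 74.9 CPM, with saline at 111 CPM. Igfbp5, an insulin-like growth factor binding protein abundant in vessel-wall cells, stood at 132 CPM (0 to 289) and 483 CPM (252 to 830), so its groups overlapped. Its saline mean was 242 CPM, and the marker sums of that label are given above. None of these genes passed the threshold.

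In perivascular macrophages 1 of 1417 other genes passed, 0.0706% of those tested, and 88 (6.21%) had an unadjusted p under 0.05. Sgcz, a sarcoglycan gene, stood at 1816, 164, 430 and 236 CPM in replicates 1 to 4 of Malat1 ASO and at 24.6 to 325 CPM with a median of 70.5 in the anti-TfR:Malat1 animals, which edgeR fitted as -2.30 on the log2 scale (SE 0.46, adjusted p = 0.0437). Nuclei of this label were few, and the value depended on single animals. Without replicate 1 of Malat1 ASO the edgeR change was -1.47 (adjusted p = 0.797), and without replicate 1 of anti-TfR:Malat1 it was -1.75 (adjusted p = 0.778). DESeq2 gave -2.20 with an adjusted p of 0.295. Kcnip4, a potassium channel partner of neurons, was next at -1.32 (adjusted p = 0.269). Lists of other cell types did not all lie on the same side in this label. The summed neuron list stood at 1826 CPM (1085 to 3088) with the conjugate and 2594 CPM (1083 to 3611) with the free oligonucleotide, and the oligodendrocyte list at 1381 CPM (666 to 2389) and 2317 CPM (1273 to 3610). The microglia list stood at 2684 and 2655 CPM and the ependymal list at 127 and 119 CPM. Their part in the Sgcz value was not tested. Perivascular macrophage markers themselves were at 8153 and 7774 CPM.

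Genes of the delivery route showed no call between the compounds. Tfrc, the mouse transferrin receptor symbol (the sources used here do not say how reads of the human knock-in allele were counted), stood at 22.2 CPM with the conjugate and 23.2 CPM with the free oligonucleotide in neurons, at a log2 change of -0.03 (SE 0.07). In oligodendrocytes it stood at 12.4 and 12.2 CPM, at -0.04 (SE 0.16), and in astrocytes at 18.6 and 15.5 CPM, at 0.33 (SE 0.34). Its counts were too low to be tested in microglia, perivascular macrophages and vascular cells. Of 10 tested genes of the transferrin receptor and iron list in oligodendrocytes, 0 passed the threshold and 8 lay below 0, with a median log2 change of -0.05. Trf, which encodes transferrin, was at 0.03 (SE 0.07), and Fth1, a ferritin subunit, at -0.02 (SE 0.17). All 17 endosome and lysosome genes were tested there with 0 past the threshold and a median of -0.04, Dnm2, a dynamin that pinches off vesicles, being at -0.13 (SE 0.09). The RNase H and RNA decay list, which holds the enzyme that cuts the paired RNA, had 13 tested, 0 past the threshold and a median of -0.02, with the nucleases Xrn1 at -0.01 and Xrn2 at 0.07.

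Other nuclear noncoding RNAs and the neighbours of Malat1 were examined for changes beside the target. Neat1, the paraspeckle RNA transcribed next to Malat1 on chromosome 19 from 5824708 to 5845478 (GRCm38), was at -0.15 (SE 0.10) in oligodendrocytes by edgeR, with 758 to 1096 CPM in the conjugate animals and 975, 1226, 983 and 1032 CPM in the free oligonucleotide animals. It was at -0.24 (SE 0.10, edgeR adjusted p = 1.00) in neurons and -0.42 (SE 0.19, adjusted p = 0.998) in microglia, and the neuronal value was -0.16 (SE 0.13) without the clusters led by other cell types. In astrocytes it was at -0.09 (SE 0.15), in vascular cells at -0.58 (SE 0.34) and in perivascular macrophages at 0.44 (SE 0.35). In oligodendrocytes 10 noncoding RNAs were tested and 0 passed, with a median of -0.06, and of 13 neighbours 0 passed, with a median of -0.04. The noncoding list had a median of 0.01 in neurons (4 of 10 tested below 0), -0.12 in astrocytes (7 of 8), -0.18 in microglia (7 of 7), -0.50 in perivascular macrophages (3 of 4) and -0.41 in vascular cells (6 of 6), with 0 past the threshold in each. Meg3 was at -0.06 (SE 0.14) in oligodendrocytes and -0.00 (SE 0.05) in neurons. In the other labels it was at -0.36 (SE 0.15) in astrocytes, -0.22 (SE 0.14) in microglia, -0.41 (SE 0.24) in vascular cells and -0.74 (SE 0.27) in perivascular macrophages. The edgeR adjusted p was 0.676 or more in each. In Malat1 ASO replicates 1 to 4 Meg3 stood at 274, 462, 383 and 683 CPM in astrocytes, beside 315 to 465 CPM in the conjugate animals. In microglia it stood at 358, 602, 546 and 1092 CPM, beside 429 to 797 CPM. The part of neuronal RNA in these values was not tested. All 14 speckle and paraspeckle protein genes were tested in astrocytes with 0 past the threshold and a median of -0.09, and 10 of the 14 lay below 0. At an unadjusted p under 0.05 were Nono at -0.54 (SE 0.21), Srsf2 at -0.33 (SE 0.16) and Sfpq at 0.26 (SE 0.13), and Son, a scaffold of speckles and the most abundant of the list, was at 0.14 (SE 0.10).

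No gene of the response lists passed the threshold either. In microglia 7 of 21 interferon genes were expressed enough to be tested, 0 passed, and the median was -0.15, with B2m at -0.09 (SE 0.21). The interferon factor gene Irf9, at 0.77 (SE 0.35), was the 1 gene of these with an unadjusted p under 0.05. Homeostatic microglial genes had 8 of 8 tested, 0 past the threshold and a median of -0.10, with P2ry12, a purine receptor, at -0.09 (SE 0.09). Activated microglial genes had 4 of 13 tested and 0 past the threshold, with Apoe at -0.02 (SE 0.13) and Trem2 at 0.01 (SE 0.14). The Fc receptors, which bind antibodies, had 4 of 6 tested, 0 past the threshold and a median of -0.20. Fcgr3 was at 0.01 (SE 0.16) and Fcer1g, a signalling subunit of the activating receptors among them, at -0.22 (SE 0.16). Gfap, the filament of reactive astrocytes, was at 0.42 (SE 0.33) in astrocytes, where 2 of 8 genes of its list were tested. The 10 myelin genes in oligodendrocytes had a median of -0.02, with Mbp at -0.00 (SE 0.06). In neurons 10 p53 target genes, 11 heat shock and unfolded protein genes and 8 immediate early genes were tested, and 0 passed. The medians were -0.03, 0.00 and -0.14. Mdm2 was at -0.08 (SE 0.06) and Hsp90aa1 at 0.12 (SE 0.15). Of the immediate early genes 7 of 8 lay below 0, among them Egr1 at -0.14 (SE 0.22) and Junb at -0.20 (SE 0.29). Nr4a1, the most abundant of them, was at 0.18 (SE 0.21).

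Over all lists, 178 genes were named, and those at an unadjusted p under 0.05 were 1 of 137 tested in oligodendrocytes (0.730%), 9 of 169 in neurons (5.33%), 7 of 93 in astrocytes (7.53%) and 4 of 117 in microglia (3.42%). The shares over all other genes in these labels were 1.91%, 2.34%, 3.29% and 3.24%. In perivascular macrophages 3 of 39 list genes (7.69%) were at that limit, beside 6.21% of all other genes. In vascular cells it was 1 of 56 (1.79%), beside 4.59%, and over all nuclei 4 of 171 (2.34%), beside 2.07%. In neurons 8 of the 9 were lower, of which 6 were microglial or Fc receptor genes (Siglech, Tmem119, Selplg, Trem2, Fcgrt and Fcgr2b). In neurons the homeostatic microglial list had a median log2 change of -0.16, with 6 of 8 tested below 0. The activated list had -0.03 (7 of 11 below 0) and the Fc receptors -0.34 (4 of 5). The summed list of 8 microglial markers in neurons, which includes Siglech, Tmem119 and Trem2, was 80.6 CPM with the conjugate and 81.6 CPM with the free oligonucleotide.

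The shares of the labels among nuclei overlapped between the groups. Neurons made up 68.9% ± 5.49 (SD, n = 6) of nuclei with the conjugate and 68.1% ± 5.64 (SD, n = 4) with the free oligonucleotide, and oligodendrocytes 25.8% ± 4.07 (SD, n = 6) and 26.1% ± 4.46 (SD, n = 4). Perivascular macrophages were 0.258% ± 0.04 (SD, n = 6) and 0.188% ± 0.04 (SD, n = 4), with an exact permutation p of 0.0286 that became 0.200 after adjustment over 7 labels. For the other 6 labels the exact permutation p was 0.324 or more.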

How the data were processed

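Nuclei of the posterior brain were read by 10x single-nucleus RNA sequencing. The deposited UMI counts per gene and nucleus were made with Cell Ranger 6.0.1 on mm10 and handled with Seurat 4, per the submitters' processing notes. The sources used here do not give intron or strand settings. The authors also deposited cell type labels, clusters, batches, doublet calls and a label prediction score, a fraction from 0 to 1 whose median was 0.700 to 1 by label, and 10 of the 18 metadata columns were not used. The matrix held 26131 genes, no nucleus had under 500 UMIs, and 47758 nuclei called doublets by the authors were kept.

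Counts were summed per animal and label for animals with 20 or more nuclei. edgeR 4.0.16 (R 4.3.3) was fitted to all 17 animals with group and batch as terms, filterByExpr, TMM factors and the quasi-likelihood test, and p-values were adjusted by Benjamini-Hochberg over all genes of a label at a threshold of 0.05. Single values were tested by exact two-sided permutation on log2(CPM + 1), freely (210 regroupings, smallest p 0.00952) and within batches (36, smallest p 0.0556). Labels name separate animals. Scripts were tested on simulated data. 

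The rule for named genes took Malat1, Neat1, Meg3 and Tfrc, genes that passed the threshold and whose animals did not overlap (up to 5 a direction), where fewer than 3 passed the smallest p-values up to 3 a direction, and the 3 most abundant tested genes of each list. Sgcz overlapped and was named as the only gene past the threshold. List genes named for an unadjusted p under 0.05 in neurons, astrocytes and microglia were chosen after their values were seen. The comparison and lists were chosen with earlier results of these data known. Alternatives included DESeq2 1.42.0, RLE factors, no low-count filter, other designs, doublets left out and each animal left out. Marker lists were also used for the vascular split. Python 3.11.15, numpy 2.4.6, pandas 2.3.3, scipy 1.17.1 and matplotlib 3.10.9 were used. Some genes that the rule took are not reported here.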

Additional observations from a re-analysis of the deposited data

Results flagged for a closer look

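Malat1 differed between the compounds by more in oligodendrocytes than in neurons of the same animals, by -0.39 on the log2 scale, and by more in astrocytes than in neurons, by -0.48. These 2 results stand out because the test was of the difference between labels itself, an exact two-sided permutation with p = 0.0190 and 0.00952, or 0.0476 for both after adjustment over 5 labels. Within batches the values were -0.36 and -0.45, with an exact permutation p of 0.0556 for both, the smallest possible there. Without batch 4 they were -0.33 (exact permutation p = 0.114) and -0.47 (p = 0.0571, the smallest possible), so neither design could give a p under 0.05.

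A pair of values came from 1 animal far from the rest of its group, replicate 6 of anti-TfR:Malat1. Of its perivascular macrophage nuclei 39.0% were low in Malat1, against a group median of 17.9%. The label glia took 0.318% of its nuclei, against a group mean of 0.0761% that includes it. The mark is Dixon's criterion, the gap from the outermost animal to the next over the whole range of the group, at limits set so that chance alone marks about 1 in 20 groups. Of 40 groups examined 2 were marked.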

How the results depend on the processing

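The edgeR change of Malat1 stayed negative in oligodendrocytes (-0.59 to -0.40) and astrocytes (-0.71 to -0.43) in each of the 22 alternatives run for each, and 20 of 22 in oligodendrocytes and 19 of 22 in astrocytes left it short of the threshold, as in the main result. The exceptions follow. In oligodendrocytes DESeq2 gave -0.49 (adjusted p = 0.0455) and no low-count filter -0.49 (edgeR adjusted p = 2.63e-07). In astrocytes edgeR gave -0.60 on the 10 animals alone (adjusted p = 0.0278), -0.58 without doublets (0.0371) and -0.56 with no filter (3.26e-17), and in microglia no filter gave -0.19 (1.39e-07). With no filter other genes past the threshold numbered 4 in astrocytes, 5 in microglia, 4 in perivascular macrophages and 6 in vascular cells. The cause was not tested.

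In perivascular macrophages the count of other genes was 0 with no batch term, with the replicate block, with only the 10 animals and with DESeq2, 8 without doublets and 3 without batch 4. Same-numbered animals correlated at -0.24 to 0.43 over 4 pairs, so the numbers were not taken as pairs. With the replicate block the neuronal Malat1 change was 0.0363.

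Moving labels within batches left single-value differences of -0.48 in oligodendrocytes and -0.58 in astrocytes, and differences from neurons of -0.36, -0.45 and, in vascular cells, 0.0020, none able to pass at 36 regroupings. Label shares within batches differed by 0.0887 points for oligodendrocytes, 0.0846 for astrocytes, 0.0797 for perivascular macrophages and 0.0038 for vascular cells. Without batch 4, where the smallest p is 0.0571, single values were -0.52 and -0.65, differences from neurons -0.33, -0.47 and, in vascular cells, 0.0185, low nuclei 33.5 and 31.0 points, and the perivascular macrophage share 0.0691. Without doublets the vascular difference from neurons was 0.0029 and the endothelial-led difference -0.59 (exact permutation p = 0.0476). Thinned to 1000 UMIs, microglia had 9.10 points more low nuclei (exact permutation p = 0.0190, without adjustment). That setting left out nuclei with fewer UMIs. The median microglial nucleus of an animal had 901 to 1166 UMIs with the conjugate and 909 to 1113 with the free oligonucleotide.

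Leaving out each animal in turn gave edgeR Malat1 changes of -0.17 to 0.0297 over all nuclei and -0.12 to 0.0902 in neurons. The changes ran from -0.23 to -0.10 in microglia, -0.32 to -0.19 in perivascular macrophages and -0.18 to -0.05 in vascular cells. Other genes past the threshold numbered 0 to 1 in neurons and 0 to 7 in perivascular macrophages. Single values ran from -0.24 to 0.0022 in neurons, -0.62 to -0.38 in oligodendrocytes (the unadjusted exact permutation p of 0.0381 rose above 0.05 in 7 of 10 omissions) and -0.30 to -0.14 in microglia. They ran from -0.33 to -0.13 in perivascular macrophages and -0.24 to -0.05 in vascular cells. Differences from neurons ran from -0.16 to -0.0574 in microglia, -0.21 to -0.0864 in perivascular macrophages and -0.15 to 0.0312 in vascular cells. Low nuclei ran from -0.941 to 5.25 points in neurons, 27.5 to 39.4 in oligodendrocytes, 5.76 to 9.93 in microglia and -0.426 to 5.17 in perivascular macrophages. Shares ran from -1.85 to 2.37 points in neurons, -1.58 to 1.79 in oligodendrocytes, -0.356 to 0.196 in astrocytes, -0.711 to -0.244 in microglia, 0.0552 to 0.0826 in perivascular macrophages, -0.0829 to 0.0306 in vascular cells and -0.0621 to 0.0005 in glia. Perivascular macrophages could not be fitted with 50 or more nuclei per animal or with nuclei of 1000 or more UMIs, nor glia in any setting.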
